A study of Mus musculus with 8 samples.

Results

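The genes described here encode 11 families of neuronal adhesion proteins: the contactins, the contactin-associated proteins, the neurexins, the neuroligins, the LRRTM, SLITRK and FLRT proteins, the teneurins, the NCAM and DSCAM proteins and the L1 family. They were picked out by gene symbol, in families chosen with earlier results of these data known, and 43 are described here out of 15705 genes in the deposited table. Poly(A) RNA was measured in the lateral ganglionic eminence (LGE), the ventral forebrain structure that gives rise to striatal projection neurons, dissected from mouse embryos at E18.5. The 4 control libraries came from embryos of genotype Isl1 flx/flx, which carry floxed alleles of Isl1 and no recombinase. The 4 libraries of the conditional knockout (cKO) came from embryos of genotype Dlx1-Cre; Isl1 flx/flx, in which the recombinase is driven by Dlx1, a gene of ventral forebrain progenitors and young neurons. Both groups carry the floxed alleles, so that effects of Cre itself and of recombining Isl1 cannot be told apart. The comparison asks which of these adhesion transcripts differ in the LGE when Isl1, a LIM-homeodomain factor of striatal neurons, is targeted.

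Adhesion proteins of these families span or sit on the facing membranes of a growing axon and its target, and their pairing helps to choose partners and to build synapses. Presynaptic neurexins bind postsynaptic neuroligins and LRRTM proteins. SLITRK proteins bind receptor phosphatases of the LAR group, and FLRT proteins bind latrophilins and, with them, teneurins. Contactins are held in the membrane by a lipid anchor and act in complexes with contactin-associated proteins, L1 family members and the receptor phosphatases Ptprg and Ptprz1. NCAM, DSCAM and L1 proteins are immunoglobulin-type adhesion molecules of axons and dendrites.

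The values are the authors' adjusted read values per gene, rounded to whole numbers. Library sums ran from 23732455 to 24456923, but they follow from the scaling and the read depth is unknown. Isl1 itself held values of 3777, 3692, 4186 and 3517 in the control libraries and 4930, 5377, 5618 and 5971 in the libraries labelled cKO, a log2 fold change of 0.53 ± 0.06 (SE, limma adjusted p = 0.000338). Isl1 was thus higher in every library labelled cKO. The value covers the whole gene and does not check the genotype labels, and every direction below rests on those labels. Of 9 markers of striatonigral neurons 6 fell, while Drd1, Eya1 and Sfxn1 did not pass. Levels were summed in reads per kilobase of gene and per unit of library size (RPKM). The sum of the 9 was 168 to 183 in the controls against 69.2 to 79.9 in the cKO. Tac1 (means of 68.2 and 9.01 RPKM) and Plxnd1 (34.1 and 10.6) held the largest parts of that difference. Of 8 striatopallidal markers 3 rose, with sums of 195 to 207 RPKM and 219.8 to 230.1. Of 12 microglial markers 11 rose, with sums of 60.1 to 68.5 RPKM and 96.9 to 116. Among 12 pallial neuron markers none passed the test, but their sum split into a low pair (12.3 RPKM for control replicate 3, 14.7 for cKO replicate 4) and 6 libraries at 24.5 to 32.2. Of 12 general LGE and striatal genes 3 rose and 2 fell, with sums of 856 to 896 RPKM and 889 to 937, so genes that define the dissected tissue were present in every library. No vascular (11), astrocyte (8), oligodendrocyte lineage (8) or progenitor (8) marker passed the test. The astrocyte sums were still lower in every cKO library, at 192 to 218 RPKM in the controls and 185 to 190.3 in the cKO. So were the oligodendrocyte lineage sums, at 51.3 to 57.4 RPKM and 49.2 to 50.4. Vascular sums were 82.1 to 89.2 RPKM and 84.5 to 101, and progenitor sums 269 to 297 and 268 to 287. The part of all these cell types in the results below was not tested. In tissue RNA fewer cells of a type and less RNA per cell cannot be told apart.

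Of the 43 genes 9 fell and 7 rose in the cKO (limma, Benjamini-Hochberg adjusted p under 0.05 over 15698 tested genes), and all 43 had passed the filter on low values. The 16 genes are 37.2% of the set, where 6.66% of all tested genes passed. Falls made up 20.9% of the set against 3.78% of all tested genes, and rises 16.3% against 2.87%. The median log2 fold change was -0.01 over the set and 0.01 over all tested genes, while the median size without sign was 0.21 and 0.08. In these same 16 genes, and in no other of the 43, the groups did not overlap, compared with 12.7% of all tested genes. By the authors' deposited table, falls numbered 8 and rises 6, where 6.55% of all its genes passed. Limited to genes with a mean value of at least 100, the share of tested genes that rose was 2.97% and that fell 4.03%, and the adhesion genes kept 7 rises and 9 falls. Changes were mostly moderate: of the 16 genes past the test 6 had a log2 fold change of at least 0.5 in size, and 2, Cntn3 and Cntn5, of at least 1. Calls ran in both directions within the contactins, the LRRTM genes and the FLRT genes, in which 1 gene rose while another fell.

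**Figure D1:**
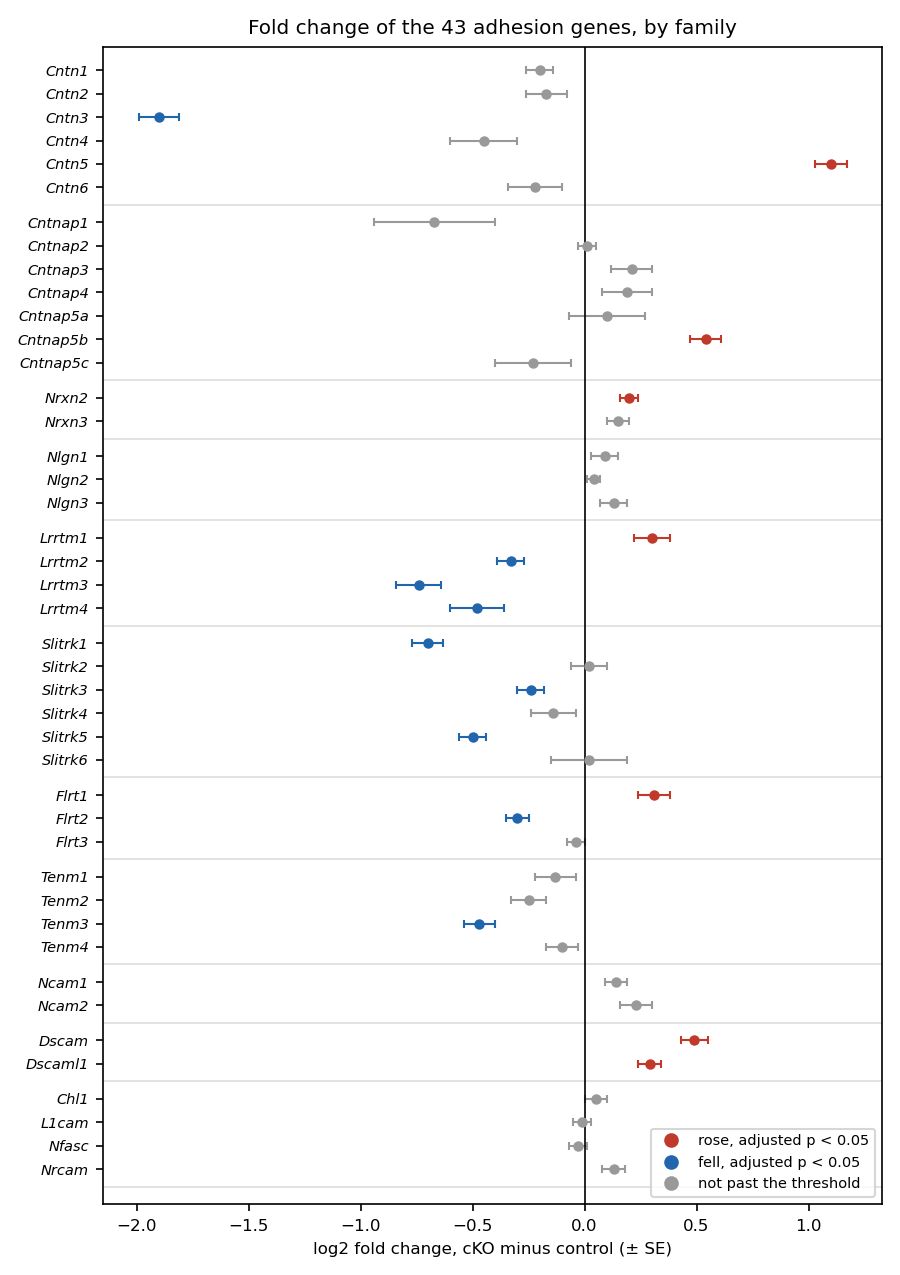
Fitted log2 fold change of the 43 adhesion genes (horizontal axis, cKO minus control, bars are SE), grouped by family in the order contactins, contactin-associated proteins, neurexins, neuroligins, LRRTM, SLITRK, FLRT, teneurins, NCAM, DSCAM and L1 family. The 7 red genes rose and the 9 blue genes fell, with Cntn3 at -1.90 and Cntn5 at 1.10 at the ends.

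The contactins held both the largest fall and the largest rise. Cntn3, a contactin of restricted expression in brain, fell in every library: its values were 239, 261, 245 and 262 in the controls and 68, 66, 69 and 63 in the cKO. The means were 252 ± 11.5 and 66.5 ± 2.65 (SD, n = 4), a 3.79-fold difference, with a log2 fold change of -1.90 ± 0.09 (SE) and a limma adjusted p of 2.19e-07. The cKO libraries lay close together and far under every control library. Cntn3 lies on chromosome 6 (102162655 to 102573101, minus strand, GRCm38).

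Cntn5, which takes part in synapse formation in sensory pathways, moved the other way. Its values were 658, 563, 660 and 646 in the controls and 1475, 1235, 1367 and 1330 in the cKO, so that the lowest cKO library stood well over the highest control. The means were 632 ± 46.2 and 1352 ± 99.2 (SD, n = 4), 2.14-fold apart (log2 fold change 1.10 ± 0.07, limma adjusted p = 1.87e-06). Cntn5 spans 1243.9 kb of chromosome 9 (9660891 to 10904775, minus strand, GRCm38).

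The other 4 contactins did not pass. Cntn4 had a mean of 194 ± 41.8 in the controls and 140.5 ± 19.8 in the cKO (SD, n = 4), with a log2 fold change of -0.45 and a 95% interval of -0.78 to -0.12 (adjusted p = 0.112). Cntn1, the most abundant contactin here and a partner of nodal and paranodal proteins, had a log2 fold change of -0.20, with adjusted p = 0.0925, and Cntn2, a contactin of pioneer axons also called TAG-1, at -0.17 (adjusted p = 0.334). Cntn2 passed without control replicate 1, whose value of 2036 stood apart from 2649 to 2663 in the other controls (log2 fold change -0.27, adjusted p = 0.0255). Cntn1 passed without cKO replicate 1 (-0.25, adjusted p = 0.0132). Cntn6 was low in both groups (-0.22, adjusted p = 0.384). On the deposited RPKM scale, which divides by gene length, the 6 contactins summed to 41.8 ± 1.56 in the controls and 42.7 ± 3.07 in the cKO (SD, n = 4). Within that sum the share of Cntn5 went from 13.4% to 15.4% in the controls to 30.3% to 30.7% in the cKO. The share of Cntn3 was 4.6% to 5.1% and then 1.2% to 1.3%, and that of Cntn1 47.0% to 51.1% and then 39.0% to 42.5%. The ratio of Cntn5 to Cntn3 in RPKM was 3.34, 2.62, 3.27 and 2.99 in the controls and 26.3, 22.7, 24.0 and 25.6 in the cKO.

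Promoter sequences were available for 32 of the 43 genes, in 45 windows of 250 bases before an annotated start (RefSeq, GRCm38.p6). Cntn5 is shown because it is the largest rise, Slitrk1 because it is a compact gene with a large fall, and Lrrtm1 and Lrrtm4 because they belong to a family whose members moved in opposite directions. The RefSeq start listed for Cntn3 lies 108.4 kb inside the annotated gene, and its window is not shown. Each sequence runs 5′ to 3′ on the strand of the gene, with CG pairs in capitals: Cntn5 (chr9:10904776-10905025, minus strand), Lrrtm1 (chr6:77242227-77242476, plus strand), Lrrtm4 (chr6:80018627-80018876, plus strand) and Slitrk1 (chr14:108914240-108914489, minus strand).
Cntn5: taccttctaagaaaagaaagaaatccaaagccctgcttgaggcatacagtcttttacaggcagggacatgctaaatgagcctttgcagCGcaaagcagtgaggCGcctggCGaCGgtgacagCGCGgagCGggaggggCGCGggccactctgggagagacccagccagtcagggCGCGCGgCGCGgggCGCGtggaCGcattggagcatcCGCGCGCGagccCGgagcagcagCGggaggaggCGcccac
Lrrtm1: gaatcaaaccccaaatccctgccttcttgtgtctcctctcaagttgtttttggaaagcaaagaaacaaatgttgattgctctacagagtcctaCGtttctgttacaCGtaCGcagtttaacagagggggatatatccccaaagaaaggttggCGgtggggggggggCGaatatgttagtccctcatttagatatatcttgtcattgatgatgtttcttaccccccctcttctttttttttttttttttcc
Lrrtm4: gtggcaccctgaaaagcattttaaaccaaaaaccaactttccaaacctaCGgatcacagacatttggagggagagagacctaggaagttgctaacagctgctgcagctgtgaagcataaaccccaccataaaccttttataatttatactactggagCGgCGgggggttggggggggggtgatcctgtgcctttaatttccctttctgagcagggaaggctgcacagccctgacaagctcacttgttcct
Slitrk1: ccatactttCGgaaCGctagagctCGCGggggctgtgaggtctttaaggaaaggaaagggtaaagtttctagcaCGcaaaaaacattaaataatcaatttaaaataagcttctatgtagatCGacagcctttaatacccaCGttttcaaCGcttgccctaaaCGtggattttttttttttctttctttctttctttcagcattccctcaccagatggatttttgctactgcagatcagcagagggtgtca

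The Cntn5 window held 24 CG pairs and was 64.8% G and C, whereas those of Lrrtm1 and Lrrtm4 held 5 and 3. Slitrk1 held 9. A second listed window held 26 pairs for Cntn5 and 8 for Lrrtm4. The median was 8 over the 45 windows of the adhesion genes and 14 over 15221 windows of tested genes. It was 8 over the 14 windows found for 12 of the 16 genes that changed. The sequences CTAATGG and CTAATTG, forms that Isl1 is known to bind, were searched on both strands. CTAATGG was in 0 of the 45 windows and in 1.3% of the windows of tested genes, and CTAATTG in 2 (4.4%), of Cntn6 and Nrxn3, and in 1.5%. These windows cover only the bases just before each listed start. Some listed starts lie far inside the annotated gene, among them those of Cntn3, Cntn4, Nrxn3, Tenm1, Tenm2 and Tenm3. Their windows, including the Nrxn3 window that held CTAATTG, are part of the medians and counts above. The counts therefore do not describe the main promoter of every gene.

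**Figure D2:**
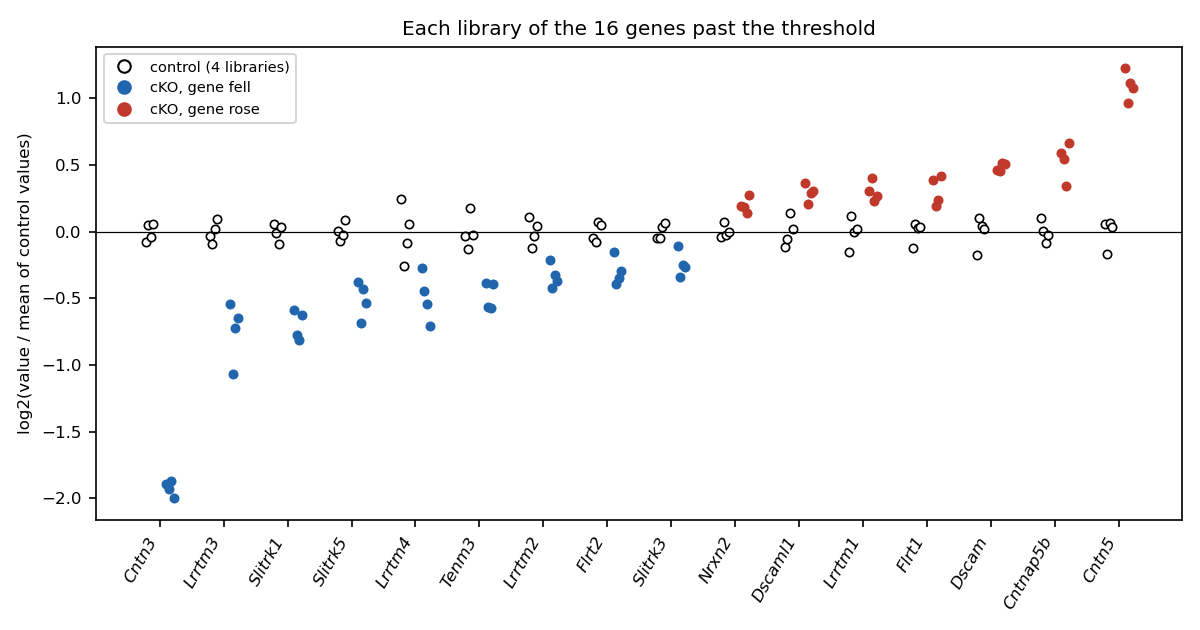
Value of each library divided by the mean of the 4 control values, on a log2 scale, for the 16 genes past the threshold, ordered by fold change. Open circles are controls, filled circles cKO, and in each gene the groups do not overlap.

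Among the 7 contactin-associated proteins only Cntnap5b passed the test. These are neurexin-like transmembrane proteins, and Cntnap5b is one of 3 mouse Cntnap5 genes. Its values were 577, 540, 506 and 527 in the controls and 808, 786, 683 and 851 in the cKO, means of 538 ± 29.8 and 782 ± 71.3 (SD, n = 4). The log2 fold change was 0.54 ± 0.07 (limma adjusted p = 0.000663), with every cKO library over every control. Its copies Cntnap5a and Cntnap5c were low, with control means of 106 and 74.2 and log2 fold changes of 0.10 and -0.23 (adjusted p = 0.819 and 0.533). Reads that the related copies share could be split between them (treatment of such reads: not given in the sources used here). Cntnap2, the most abundant gene of the family in RPKM, which clusters potassium channels along the axon, had means of 3068 ± 93.4 and 3089.8 ± 154 (SD, n = 4) and a log2 fold change of 0.01, with a 95% interval of -0.08 to 0.10. Cntnap1, a protein of the paranodal junction, ranged from 79 to 145 in the controls and from 48 to 112 in the cKO (-0.67, 95% interval -1.25 to -0.08, adjusted p = 0.195), and it overlaps exons of Plekhh3 on the opposite strand. Cntnap3 (0.21, adjusted p = 0.234) passed without cKO replicate 4, at 0.31 (adjusted p = 0.0324). It also passed without the pair of libraries lowest in pallial markers, which includes that library (0.34, adjusted p = 0.0451). Cntnap4 was at 0.19 (adjusted p = 0.395).

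Neurexins are presynaptic organisers. Nrxn2 rose by a small amount, from 5961, 6452, 6043 and 6118 in the controls to 7012, 6978, 6764 and 7449 in the cKO, a log2 fold change of 0.20 ± 0.04 (limma adjusted p = 0.00987). This call was lost in the authors' deposited table (adjusted p = 0.0532) and without the pair of libraries lowest in pallial markers (0.16, adjusted p = 0.0888). The gene Slc22a12 overlaps exons of Nrxn2 on the opposite strand and also rose, from a mean of 1.5 to 6.8 (1.68 ± 0.38, limma adjusted p = 0.0219), and its part in the value of Nrxn2 was not tested. Nrxn3 had a log2 fold change of 0.15 and did not pass (95% interval 0.03 to 0.26, adjusted p = 0.149). It passed without cKO replicate 3 (0.20, adjusted p = 0.0275).

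None of the 3 neuroligins, the classical postsynaptic partners of neurexins, passed the test. Nlgn2, the neuroligin of inhibitory synapses and the most abundant here at 57.0 ± 1.80 RPKM in the controls (SD, n = 4), had a log2 fold change of 0.04 with a 95% interval of -0.03 to 0.11. Nlgn3 was at 0.13 (-0.01 to 0.26) and Nlgn1, found at excitatory synapses, at 0.09 (-0.04 to 0.22). The values of the groups overlapped in each neuroligin.

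All 4 LRRTM genes, whose products are postsynaptic leucine-rich repeat ligands of neurexins, passed the test, 3 falling and 1 rising. Lrrtm3 fell most: 415, 398, 430 and 454 in the controls and 292, 202, 257 and 271 in the cKO, a log2 fold change of -0.74 ± 0.10 (limma adjusted p = 0.000955). Lrrtm2 fell from 1562, 1328, 1413 and 1490 to 1250, 1083, 1158 and 1121 (-0.33 ± 0.06, adjusted p = 0.00559). Lrrtm4 fell from 302, 213, 240 and 265 to 211, 187, 175 and 156 (-0.48 ± 0.12, adjusted p = 0.0354). Lrrtm1 rose from 195, 235, 216 and 219 to 267, 286, 253 and 260 (0.30 ± 0.08, adjusted p = 0.0424).

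The highest Lrrtm4 value of the cKO, 211, was close to the lowest of the controls, 213. The Lrrtm4 call held in 2 of the 8 fits that left out a single library, those without control replicate 2 or cKO replicate 1, and the other 6 gave adjusted p from 0.0647 to 0.106. The Lrrtm1 call held in 1, without control replicate 2, and the other 7 gave adjusted p between 0.0547 and 0.12. Without the pair of libraries lowest in pallial markers Lrrtm1 and Lrrtm4 did not pass either (adjusted p = 0.146 and 0.151), and only there was the Lrrtm2 call lost (-0.33, adjusted p = 0.0525), while that of Lrrtm3 held in every alternative.

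Lrrtm1, Lrrtm2 and Lrrtm3 each lie inside an alpha-catenin gene on the opposite strand. The surrounding genes did not pass: Ctnna2 around Lrrtm1 had a log2 fold change of 0.02 ± 0.03, Ctnna1 around Lrrtm2 of 0.08 ± 0.04, and Ctnna3 around Lrrtm3, at means of only 3.2 and 5.0, of 0.50 ± 0.47. Exons of Ctnna1 and Lrrtm2 overlap. The libraries were directional but the strand setting of the counting, not given in the sources used here, leaves the value of Lrrtm2 uncertain. In RPKM the 4 genes summed to 20.9 ± 1.21 in the controls and 17.0 ± 0.953 in the cKO (SD, n = 4), and the share of Lrrtm1 was 14.8% to 19.6% and then 23.8% to 28.7%.

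**Figure D3:**
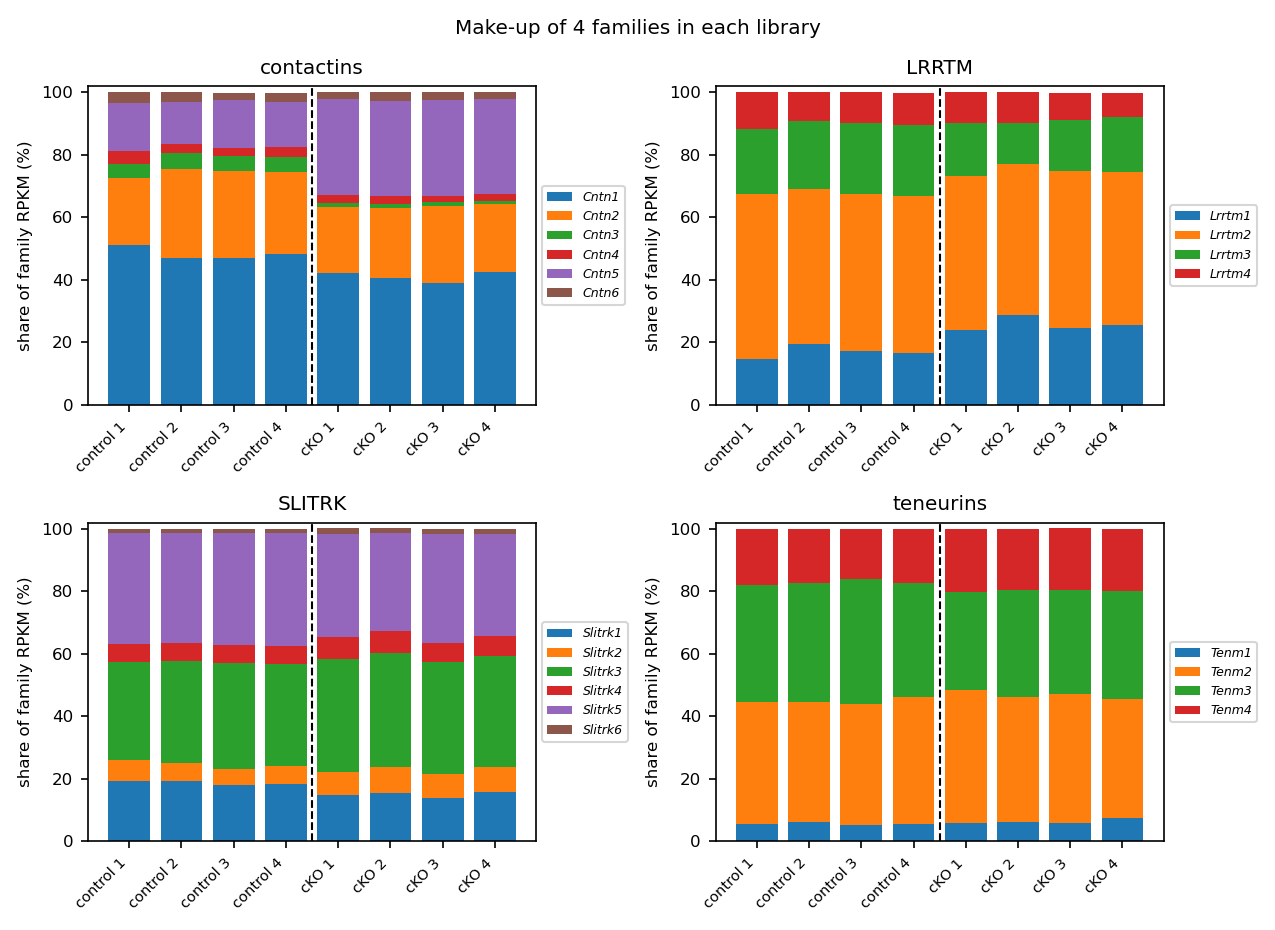
Share of each member in the RPKM sum of its family (vertical axis, percent) in each of the 8 libraries, for the contactins, LRRTM genes, SLITRK genes and teneurins. The dashed line separates controls from cKO, and Cntn5 takes 30.3% to 30.7% of the contactin sum in the cKO against 13.4% to 15.4% in the controls.

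SLITRK genes, which encode postsynaptic leucine-rich repeat ligands of receptor phosphatases, fell in 3 of 6 cases and rose in none. Slitrk1 held 682, 652, 615 and 671 in the controls and 437, 382, 373 and 424 in the cKO, means of 655 ± 29.4 and 404 ± 31.3 (SD, n = 4). The log2 fold change was -0.70 ± 0.07 (limma adjusted p = 5e-05). Slitrk5 fell from 1422, 1354, 1392 and 1503 to 1091, 883, 1054 and 981 (-0.50 ± 0.06, adjusted p = 0.000515). In both genes a wide gap separated the groups.

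Slitrk3, a SLITRK of inhibitory synapses, showed a smaller change, from 970, 971, 1028 and 1050 to 932, 792, 846 and 838 (-0.24 ± 0.06, adjusted p = 0.0246). Leaving out any of control replicates 3 and 4 or cKO replicates 2, 3 and 4 ended its call (adjusted p from 0.0564 to 0.0941), and in the authors' deposited table it did not pass (adjusted p = 0.0577), nor did it without the pair lowest in pallial markers (0.156). Slitrk2 and Slitrk6 were both at 0.02, and Slitrk4 was at -0.14. The RPKM sum of the 6 genes was 34.2 ± 1.49 in the controls and 26.1 ± 1.86 in the cKO (SD, n = 4). Slitrk1, Slitrk6 and Slitrk5 lie in that order on chromosome 14, with gaps of 1.83 and 0.92 Mb that hold no other tested gene. The 2 outer genes of the row fell, while Slitrk6 between them, with control and cKO means of 44.2 ± 5.85 and 45.2 ± 8.77 (SD, n = 4), had the lowest level of the set and a 95% interval of -0.36 to 0.40.

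FLRT genes moved in opposite directions. Flrt2, which guides migrating neurons and axons through Unc5 receptors and latrophilins, fell from 5576, 5472, 6063 and 5958 to 5193, 4398, 4533 and 4690 (log2 fold change -0.30 ± 0.05, limma adjusted p = 0.00583). Flrt1 rose from 415, 471, 462 and 463 to 592, 517, 533 and 604 (0.31 ± 0.07, adjusted p = 0.0186). The groups were apart in both genes. Leaving out cKO replicate 4 ended the Flrt1 call (0.27, adjusted p = 0.0649), and both calls ended without the pair of libraries lowest in pallial markers (Flrt1 0.28, adjusted p = 0.108, and Flrt2 -0.27, adjusted p = 0.0654). Flrt3 was at -0.04 (95% interval -0.13 to 0.05). Flrt1 and Flrt3 lie inside Macrod1 and Macrod2 on the opposite strand with no shared exon, and those genes had log2 fold changes of 0.04 ± 0.11 and 0.15 ± 0.08.

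Teneurins are large transmembrane proteins that bind latrophilins across the synapse and guide the matching of axons to targets. All 4 were lower in mean, and Tenm3 alone passed. It held 7091, 6634, 8189 and 7115 in the controls and 5553, 4895, 4875 and 5542 in the cKO, means of 7257 ± 659 and 5216 ± 383 (SD, n = 4), with a log2 fold change of -0.47 ± 0.07 (limma adjusted p = 0.000957). Tenm2 did not pass, at -0.25 (95% interval -0.43 to -0.08, adjusted p = 0.0963). Its value in cKO replicate 1, 6676, lay among the controls, and without that library it passed, at -0.34 (adjusted p = 0.00308), as it did without control replicate 2 (-0.30, adjusted p = 0.0455). Tenm1 was at -0.13 and Tenm4 at -0.10. The RPKM sum of the teneurins was 72.3 ± 4.89 in the controls and 58.7 ± 5.71 in the cKO (SD, n = 4).

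Both DSCAM genes rose. Their products mediate self-avoidance of neurites. Dscam went from 1257, 1526, 1461 and 1441 to 1962, 1946, 2034 and 2021, means of 1421 ± 115 and 1991 ± 43.3 (SD, n = 4), a log2 fold change of 0.49 ± 0.06 (limma adjusted p = 0.000216). Dscaml1 went from 3178, 3319, 3780 and 3480 to 4419, 3969, 4201 and 4243 (0.29 ± 0.05, adjusted p = 0.00594). The cKO values of Dscam lay close together and well over the highest control. Both calls held under all alternatives, and the RPKM sum was 28.6 ± 1.68 and 36.1 ± 1.17 (SD, n = 4).

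The NCAM and L1 families, which include the most abundant transcripts of the set, did not pass the test in any member. L1cam, an adhesion molecule of axon growth and bundling, averaged 78.4 ± 3.12 RPKM in control and 77.3 ± 4.51 RPKM in cKO libraries (SD, n = 4), a log2 fold change of -0.01 with a 95% interval of -0.11 to 0.08. Chl1, the close homologue of L1, was at 0.05 (-0.07 to 0.16), Nfasc, a protein of the axon initial segment and nodes, at -0.03 (-0.13 to 0.06), and Nrcam at 0.13 (0.03 to 0.23, adjusted p = 0.144). Ncam1 stood at 69.8 ± 2.46 and 76.6 ± 6.18 RPKM (SD, n = 4) and did not pass (0.14 on the log2 scale, adjusted p = 0.172). Ncam2 was at 0.23 (0.07 to 0.39, adjusted p = 0.0902), and leaving out cKO replicate 2 made it pass (0.28, adjusted p = 0.0469). L1cam overlaps exons of Arhgap4 on the same strand, so its value is uncertain, although the Arhgap4 means were only 136 and 148.

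In level per length the 43 genes ranged from 0.432 ± 0.0559 RPKM for Slitrk6 to 78.4 ± 3.12 for L1cam in the controls (SD, n = 4), a span that placed them above 14.1% and above 94.8% of the tested genes. Below L1cam came Ncam1, Nlgn2 at 57.0 ± 1.80, Nrxn2 at 38.2 ± 1.05, Chl1 at 35.1 ± 1.73 and Flrt2 at 33.7 ± 1.66. The SD ranges of Chl1 and Flrt2 overlapped. Genes past the threshold ran from Cntn3 (2.01 ± 0.0836 RPKM) through Dscam (7.87 ± 0.548) to Nrxn2, above 27.8% to 87.2% of the tested genes. No member of the set with a control level below that of Cntn3 or above that of Nrxn2 passed.

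**Figure D4:**
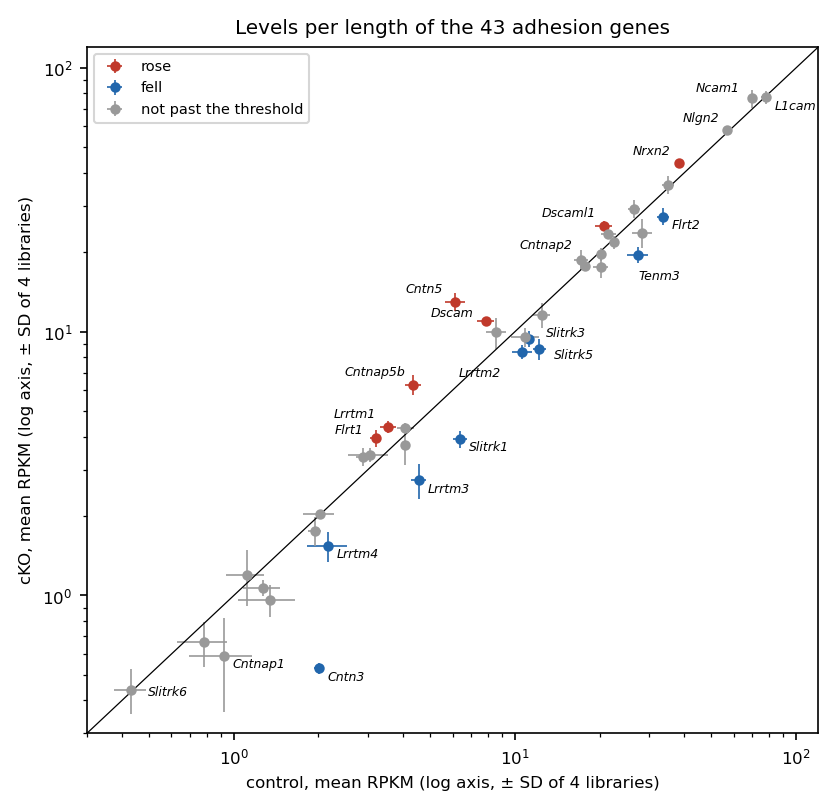
Mean RPKM in the controls (horizontal) and in the cKO (vertical) for the 43 genes, both on log axes, with SD of 4 libraries as bars and the line of equal level. Cntn3 at 2.01 and 0.529 RPKM and Cntn5 at 6.13 and 13.0 RPKM lie farthest from the line.

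Many of the genes are among the longest in the genome. Their median span was 273.1 kb, against 24.3 kb over 15346 tested genes with coordinates, and 27 of the 43 spanned at least 100 kb. Of all tested genes at least 100 kb long 13.9% passed the test, compared with 5.42% of the shorter genes. Among the adhesion genes the long ones passed in 9 of 27 cases (33.3%) and the shorter ones in 7 of 16 (43.8%). Long genes both rose and fell, as Cntn5 and Cntn3 show, and the compact Slitrk1 (5.4 kb) fell. The median log2 fold change was 0.05 for the long members and 0.02 for all long genes.

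**Figure D5:**
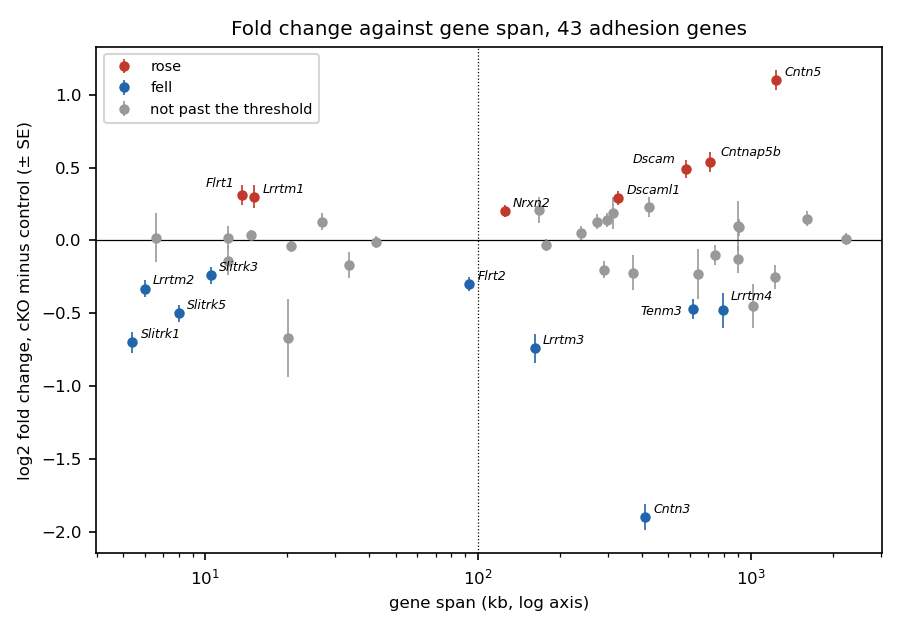
Fold change (vertical axis, log2 scale, cKO minus control, bars are SE) against the span of the gene in kb (log axis) for the 43 genes, with a dotted line at 100 kb. Genes that rose or fell lie on both sides of the line.

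Partners of these proteins were followed in 5 lists, whose counts stand beside the 6.66% of all tested genes that passed. Of 35 other synaptic adhesion genes 4 fell and 1 rose, with a median log2 fold change of 0.01. Cadm2, a synaptic immunoglobulin-type protein, fell from 4720, 4388, 4558 and 4847 to 2882, 2489, 2991 and 2612 (-0.76 ± 0.06, limma adjusted p = 9.71e-06), with no overlap between the groups. Clstn2, a calsyntenin, fell by 0.57 ± 0.11 on the log2 scale (adjusted p = 0.00773), and Adgrl3, a latrophilin that binds FLRT proteins and teneurins, was at -0.37 ± 0.07 (adjusted p = 0.0085). Adgrl2, named after its value was seen, was at -0.20 ± 0.05 (adjusted p = 0.0313), a call lost in 6 of the 8 fits without a single library. Its groups overlapped, with 4637 in cKO replicate 4 and 4614 in control replicate 3. The riser was Elfn2 (0.21 ± 0.05, adjusted p = 0.0255). Leaving out any single control, or cKO replicate 2, ended the Elfn2 call. Neither Adgrl2 nor Elfn2 passed in the authors' deposited table, and over the 19 alternatives their calls held in 10 and 9.

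Of 5 receptor phosphatases, Ptprg, a ligand of contactins including Cntn3 and Cntn5, fell from 2234, 2380, 2097 and 2319 to 1932, 1737, 1719 and 1961 (log2 fold change -0.30 ± 0.06, limma adjusted p = 0.00673). The other 4 did not pass, and these include Ptprd, Ptprs and Ptprf, the LAR group to which SLITRK proteins bind. Of 23 scaffold and regulator genes 2 fell and 2 rose. Mdga2, which masks neuroligins from neurexins, fell from 1165, 1191, 1136 and 1269 to 816, 643, 742 and 758 (-0.69 ± 0.07, adjusted p = 7.95e-05), and none of its cKO values came near the controls. Lin7c, a PDZ adaptor, rose (0.20 ± 0.04, adjusted p = 0.00689), and its relative Lin7a fell (-0.34 ± 0.08, adjusted p = 0.0257). The groups of Lin7a overlapped, with 1765 in cKO replicate 1 and 1749 in control replicate 2. Apba1, which links neurexin scaffolds to vesicle proteins, was at 0.17 ± 0.04 (adjusted p = 0.0352). The Lin7a call held in 2 of the 8 fits that left out a single library and the Apba1 call in 1. Over all 19 alternatives the Lin7a call held in 10 and the Apba1 call in 5. Even with all 8 libraries Apba1 did not pass in the authors' deposited table, in the RPKM columns or under other scalings.

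Of 18 secreted organisers, which include cerebellins and neurexophilins that bind neurexins, Lgi2 alone passed, falling from 1086, 816, 932 and 934 to 601, 704, 654 and 482 (-0.63 ± 0.11, limma adjusted p = 0.00521). Of 9 anchors and matrix proteins of the axon Tnr, the extracellular matrix protein tenascin-R that binds contactins, rose from 632, 645, 636 and 722 to 1213, 843, 839 and 1003 (0.55 ± 0.10, adjusted p = 0.00773). cKO replicate 1 was the highest of its 4 values. Tnr and Lin7c lost their calls without the pair of libraries lowest in pallial markers (adjusted p = 0.0847 and 0.0767).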

How the data were processed

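Poly(A) RNA of the LGE from 8 samples was sequenced as single reads from directional libraries, per the labels' protocols. STAR, featureCounts, edgeR and build mm10 are named in the submitters' processing notes, with versions and counting options not given in the sources used here. Columns deposited under the heading raw hold a score: adjusted values in whole numbers, whose upper quartiles were 1624 to 1635. On the natural log scale 1 combination of the libraries hardly varied over 5711 genes with a mean above 1000 (singular value 0.000241, the next 0.0433). The step that left it is not stated, and SDs, SEs and p-values are too small to an unknown degree. A count test was therefore not applied, and depth gives no interval. Deposited RPKM values equal this score divided by column sum and gene length, as tested on the file. The authors' own log2 fold changes and p-values, also deposited, were an alternative. Their sign is cKO over control.

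The test was limma 3.58.1 with a mean trend (R 4.3.3) on log2(value + 1) in all 8 libraries, for the 15698 genes that reached 1 in at least 4 of them, with Benjamini-Hochberg adjustment and a threshold of 0.05. Adding 1 makes changes of low genes look smaller. P-values measure the spread between these samples, whose litters are not stated. The fit was also run on simulated data, but the outcome is not given here and no call rests on it. Coordinates came from GENCODE M21 (GRCm38), which held 97.8% of symbols and all 43 adhesion genes described. Of 44 genes that the symbol rule finds, 1 is not reported here. The genes described and the partner and marker lists were chosen with earlier results of these data known. All changed genes among the 43 are named, and up to 4 changed genes of each partner list by smallest p. Adgrl2 is named outside that rule. The 19 alternatives covered scaling, pseudocount, filters, the RPKM columns, the authors' test, a replicate block and left-out libraries.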

Additional observations from a re-analysis of the deposited data

Results flagged for a closer look

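In 86 groups of 4 values (43 genes in both groups), 5 held a library that stood apart from the other 3 by a gap test at the 95% level, a rate at which chance flags about 1 in 20. Cntn2 was 2036 in control replicate 1, with 2649 to 2663 in the others. Cntn5 was 563 in control replicate 2 (646 to 660 in the others), and Flrt1 was 415 in control replicate 1 (462 to 471). Slitrk4 was 197 in control replicate 4 (180 to 181). Among the cKO libraries, Cntn4 was 170 in replicate 1 (128 to 133). Without the library concerned the calls of Cntn5 and Flrt1 held, those of Cntn4 and Slitrk4 stayed absent, and Cntn2 gained a call.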

How the results depend on the processing

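Of the 16 calls, 9 held under all 19 alternatives: Cntn3, Cntn5, Cntnap5b, Lrrtm3, Slitrk1, Slitrk5, Tenm3, Dscam and Dscaml1. A further 7 genes passed in at least 1 alternative, and 20 passed in none. No called gene changed direction. Leaving out 1 library at a time gave 7 to 11 falls and 6 or 7 rises among the adhesion genes, and from 659 to 959 for all genes called (1045 with every library), the lowest without control replicate 4. Without the pair of libraries lowest in pallial markers, 5 adhesion genes fell and 5 rose, and 610 was the count for all genes called. Cntnap3, not called with every library, was among these rises. With fewer samples fewer genes can pass. Entering the missing direction of variation as a covariate left 7 falls and 6 rises, with Lrrtm1, Lrrtm4 and Slitrk3 no longer passing (adjusted p = 0.0977, 0.0615 and 0.0502). Lrrtm4 and Slitrk3 also did not pass with no mean trend (0.0886 and 0.0654), nor Lrrtm4 in the RPKM columns (0.0761). With the replicate block 12 genes fell and 8 rose, Cntn1, Cntn4 and Tenm2 being added to the falls and Nrxn3 to the rises. The deviations of same-numbered libraries had correlations of 0.23, -0.03, -0.11 and -0.53, so the numbers do not show a pairing. No scaling moved the median log2 fold change of all genes by more than 0.01. The depth behind the values is unknown.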
